A study of Mus musculus with 12 samples.

Results

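The comparison described here is H3K4me3 in Ints11 knockout (KO) against wild-type (WT) cells, taken as the 4 lists of H3K4me3 peaks among the 12 libraries of the series, 2 from WT mice (WT_407 and WT_409) and 2 from KO mice (KO_399 and KO_401). No measured value was used to choose them. All mice were C57BL/6, and the cells were bone marrow cells that lack lineage markers and carry cKit (Lin-cKit+), a fraction rich in blood stem and progenitor cells, sorted 4 days after poly(I:C). The KO mice carried floxed Ints11 with Mx1Cre+, and the WT littermates were given poly(I:C) as well. The Mx1 promoter that drives this Cre answers to interferon and is not restricted to 1 cell type, so cells outside the blood lineage can also lose the gene. Poly(I:C) was common to both groups, and the labels give no ages.

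H3K4me3 is a histone mark laid down around the start of genes that are transcribed or poised, and broad stretches of it are known at highly used genes. Ints11 is the RNA-cutting subunit of Integrator, a complex that works at the start of genes on nascent transcripts of RNA polymerase II. Its textbook substrates are the small nuclear RNAs (snRNAs) made by RNA polymerase II, most of them RNA parts of the spliceosome, whose 3′ ends it forms.

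Where 4 values follow each other below, they stand in the order WT_407, WT_409, KO_399, KO_401. The lists counted 25145, 26279, 27676 and 25090 peaks. The genome-wide background used by the peak caller, which moves with depth, was 2.23, 1.94, 2.65 and 1.93 reads per position. The median summit held 58, 52, 66 and 55 reads, and the fold of 5 that every listed peak passes asked for 15.1, 13.7, 17.2 and 13.7 reads. KO_399 was thus the deepest library. Progenitor genes were marked in all 4 libraries: covered length within 5 kb of a start was 4310, 4643, 4814 and 4738 bp at Kit, the stem cell factor receptor that the sort selects for, and 5907, 6103, 6182 and 5961 bp at Myb, a progenitor transcription factor.

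Across the genome the genotypes did not separate. H3K4me3 at promoters, meaning peaks within 2 kb of the start of a protein-coding or long noncoding gene, covered 27.8, 28.2, 32.4 and 27.6 Mb. Distal peaks, all others, covered 9.16, 10.3, 12.1 and 9.08 Mb. KO_399 was the highest in both classes and KO_401 the lowest, so the WT values lay between the KO values (exact two-sided permutation p = 1 for both, n = 2 each; of the 6 ways to label the libraries, 2 always give the extreme value, so this design cannot reach 0.05). Promoter peaks had median widths of 1768, 1807, 1987 and 1776 bp (exact permutation p = 0.667, n = 2 each) and distal peaks of 670, 650, 726 and 626 bp (exact permutation p = 1, n = 2 each). Promoters took 75.2%, 73.2%, 72.8% and 75.2% of the covered bases, and the numbers of promoter peaks were 14085, 13969, 14508 and 13924. Peaks of 4 kb or more numbered 944, 1075, 1611 and 1017, a difference between the KO mice that exceeded that between the WT mice.

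**Figure D1:**
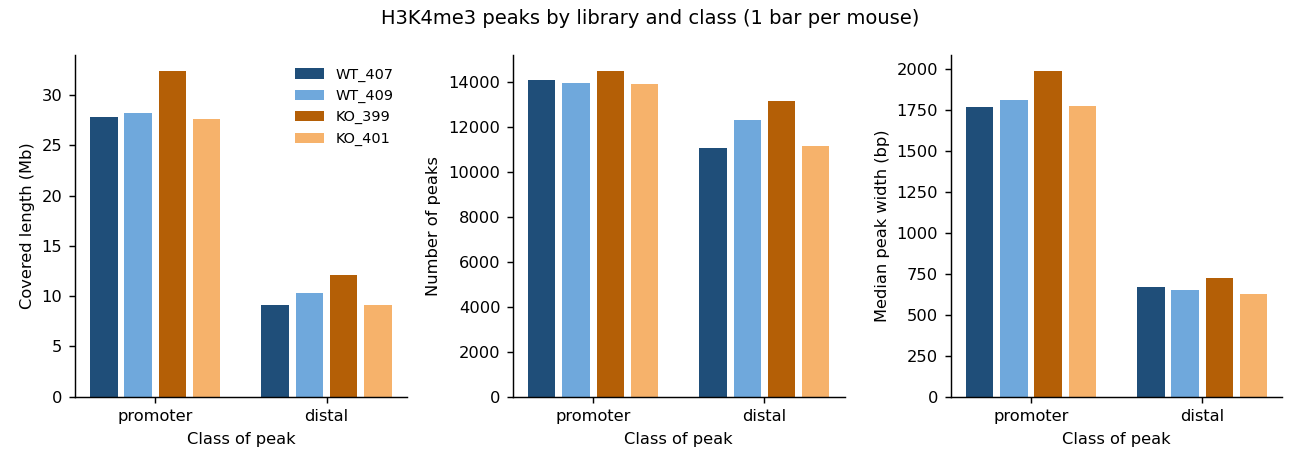
Covered length (Mb), number of peaks and median peak width (bp) of H3K4me3 for promoter and distal peaks, with 1 bar per library. KO_399 is the tallest bar in every group, and KO_401 lies near the WT libraries.

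The difference between 2 mice of the same genotype served as the noise reference. Over 13690 genes with at least 250 bp of H3K4me3 on average within 5 kb of a start, the median absolute difference in log2 length, after each library was centred on its median, was 0.0997 in the WT pair and 0.0984 in the KO pair. The 4 pairs of a WT and a KO mouse gave 0.0880 to 0.112, on both sides of the pairs of like genotype. Strength was compared as the rank of the authors' fold within each list, over 20076 regions that all 4 libraries held. At promoters the median rank difference was 6.59 percentile points in the WT pair, 5.49 in the KO pair and 5.75 to 6.57 across genotypes. At distal regions it was 6.37, 4.76 and 5.38 to 5.78. The Jaccard index of covered bases at distal sites was 0.617 in the WT pair and 0.643 in the KO pair, against 0.614 to 0.653 across genotypes. In none of these 4 measures did the pairs across genotypes lie all above or all below the pairs within a genotype.

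**Figure D2:**
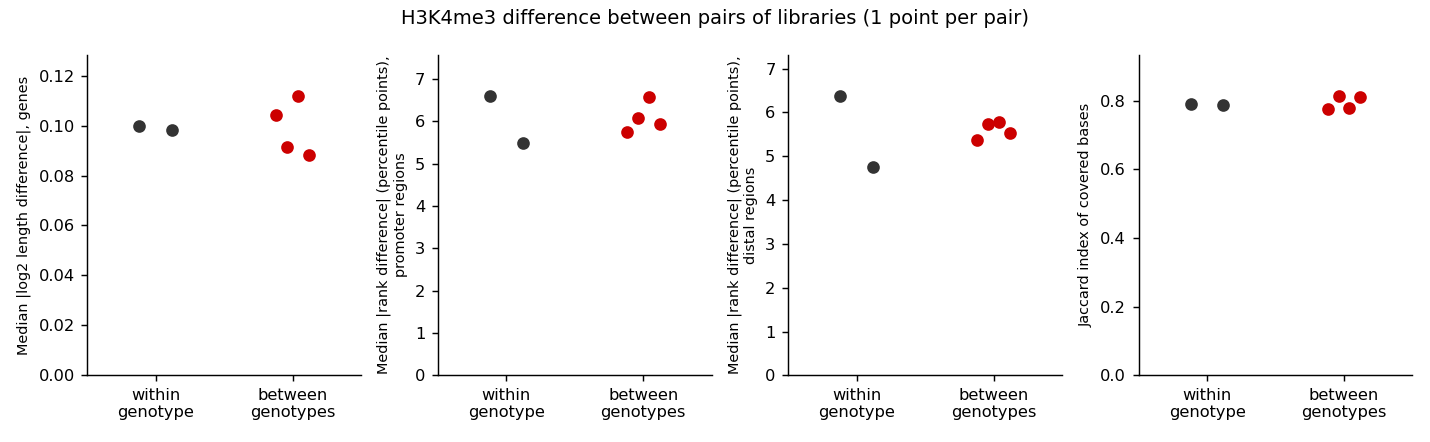
Differences between pairs of H3K4me3 libraries, with 1 point per pair: median absolute log2 length difference over genes, median absolute rank difference in percentile points for promoter and distal regions, and Jaccard index of covered bases. In no panel do the 4 pairs between genotypes lie all above or all below the 2 pairs within a genotype.

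H3K4me3 regions at snRNA genes were often shorter and of lower rank in KO. The RefSeq table types 1004 genes as snRNA, and 54 of the shared regions hold such a gene. In 18 of the 54 (33.3%) the region was shorter in KO by more than the larger difference between mice of 1 genotype, and in 0 of the 54 was it longer by that measure. Over all 20076 shared regions, 4.79% were shorter and 3.79% longer in this sense. In rank, 15 of the 54 were lower in KO and 1 was higher, against 4.4% and 4.64% of all shared regions. In 9 of the 18 shorter regions the summit reads of both KO libraries were under those of both WT libraries. These reads are not scaled for depth, and KO_399 was the deepest library. The same count was not made over all shared regions, and the 18 had been picked as shorter in KO. The rank rests on a ratio to background, and at Rnu3a it was lower in KO although the summits held 205, 231, 234 and 218 reads. The median of the 54 length changes was -0.23 on the centred log2 scale, against -0.01 for all shared regions, and the median rank change was -10.8 percentile points. Without centring 10 of the 54 were shorter and 1 longer, against 1.37% of all shared regions shorter, and the median was -0.15. In these bulk samples, fewer cells with the mark and less of it per cell cannot be told apart. The kind of gene was chosen after values at single sites had been seen, so these shares are a description and carry no test. RefSeq types U3, 7SK and some other small RNAs as snRNA too, and they are counted here. Not every gene in the 54 regions therefore needs to be an Integrator substrate.

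The same counts for other kinds of gene follow. The 82 regions with a small nucleolar RNA gene had a median length change of -0.0018, with 3 shorter and 4 longer, and 6 lower and 3 higher in rank. The 131 regions with a transfer RNA gene had -0.05, with 10 shorter and 1 longer, and 4 lower and 5 higher in rank. Of these, 88 of 131 had a length change below 0, against 10965 of all 20076 shared regions. The 142 with a microRNA gene had -0.02, with 7 shorter and 7 longer, and 4 lower and 7 higher in rank. The 35 with a histone gene had 0.05, with 1 shorter and 3 longer, and 1 lower and 1 higher in rank. No test of the difference between these kinds was made.

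**Figure D3:**
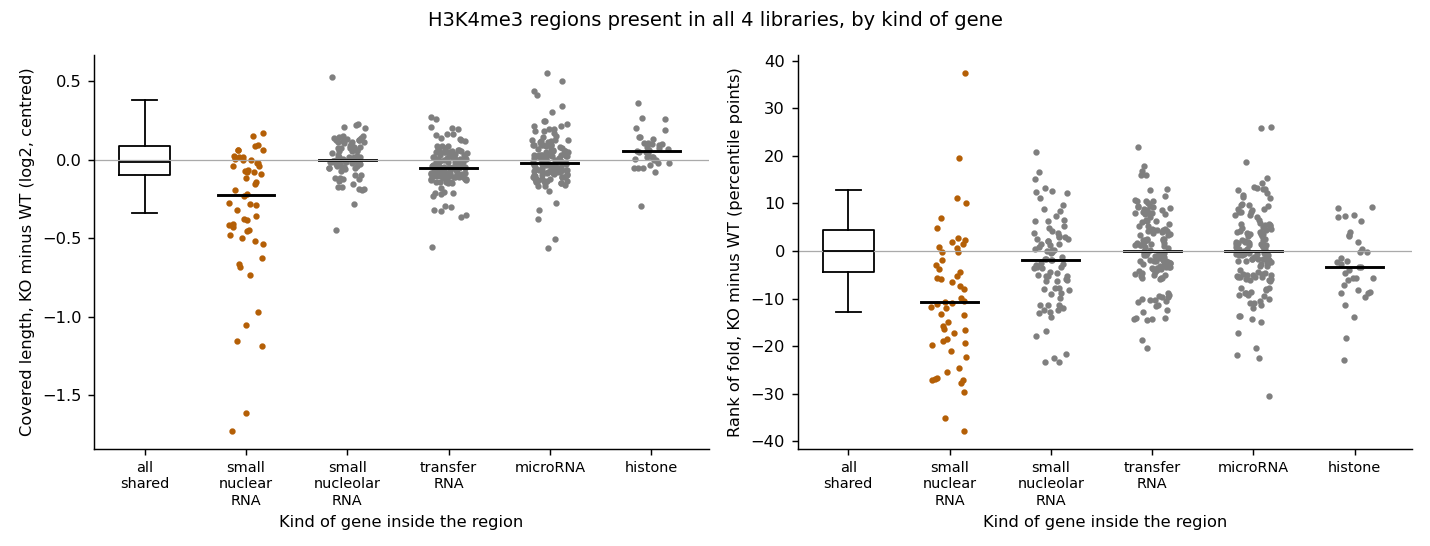
Change of H3K4me3 from WT to KO in regions present in all 4 libraries, by kind of gene inside the region: covered length (log2, centred) at left and rank of fold within the list (percentile points) at right. Points are regions and lines are medians; the box for all 20076 regions shows quartiles with whiskers at the 5th and 95th percentiles. The 54 snRNA regions reach from 0.17 down to -1.72 in length, with the median at -0.23.

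The median length change was -0.39 over the 29 distal snRNA regions and -0.04 over the 25 at promoters, a difference that was not tested. Of the 29, 11 were shorter (37.9%, against 5.69% of all distal shared regions), 0 were longer (against 3.38%) and 26 had a negative length change. Over all 7359 distal shared regions, 4178 had a negative length change. Of the 25, 7 were shorter (28%, against 4.26% of all promoter shared regions) and 0 longer (against 4.03%). The region on chromosome 11 from 87425816 to 87426967 (mm10), which holds the snRNA gene Gm22068 inside the span of Tex14, covered 943 and 1152 bp in the WT mice against 381 and 288 bp in the KO mice. Its summit held 83, 97, 38 and 20 reads. Both KO values were under both WT values, although KO_399 was the deepest library. The region sits next to Rnu1a1, a gene for U1, the snRNA that recognises the 5′ splice site, where the marked region was 1531, 1367, 1066 and 1154 bp long.

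In bins of 1 Mb, 9 bins held 2 or more of the 54 regions, and 4 of the 9 held a shorter one. On chromosome 12 between 54694587 and 54739398, near Eapp, 7 regions with snRNA genes together covered 10.5, 11.4, 7.95 and 5.78 kb, and 5 of the 7 were shorter. The region at LOC115488077 (54733171 to 54735420) was 2074 and 2250 bp long in WT, and 1005 and 550 bp in KO. On chromosome 1 between 72225523 and 72256390, 4 regions covered 5.42, 6.46, 4.25 and 3.74 kb, and 3 of them were shorter. The region at Gm25939 had 2121, 2336, 1187 and 892 bp. The 6 regions of chromosome 11 between 87421876 and 87471605, Gm22068 and Rnu1a1 among them, covered 6.11, 6.79, 4.67 and 4.59 kb, and 3 were shorter. On chromosome 4 near Kif2c 1 of 2 was shorter. None was shorter in the bin on chromosome 11 near Rdm1 (0 of 4; 5.68, 6.29, 5.32 and 4.53 kb), on chromosome 3 (0 of 3; 4.95, 4.83, 4.78 and 4.35 kb) or in those on chromosomes 6, 10 and 13 (0 of 2 each). Both KO totals were under both WT totals in 6 of the 9 bins and over them in 0. These totals are not centred, and the same count was not made for bins of other regions, so it carries no test. On chromosome 10 the totals were 9.91, 9.92, 11.5 and 9.81 kb and on chromosome 13 15.3, 14.4, 15.7 and 14.9 kb. Among genes of named snRNAs, the region at Rnu12, for U12 of the minor spliceosome, was 2729 and 2808 bp in WT and 2494 and 2265 bp in KO, and was shorter by the same measure. Rnu11, for U11 of the minor spliceosome, was not, at 715, 1165, 757 and 881 bp. Rnu7, for the snRNA that guides histone RNA processing, had 1949, 2438, 2039 and 1649 bp, and its rank was lower in both KO mice (61.8, 67.5, 41.1 and 43.5 percentile). Many snRNA genes are near-identical copies, so reads cannot be placed on 1 copy with certainty. Read placement was not tested, for single copies or for cluster totals.

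Of the 10 snRNA genes listed for this comparison the RefSeq table held 9, which include Rnu1a1, Rnu1b6, Rnu2-10, Rnu5g, Rnu11 and Rnu12. In 6 of the 9, each KO library covered fewer bases within 5 kb of the gene than either WT library, and in 0 more. The window takes in neighbouring peaks. Rnu5g and Rnu11 are among the 6, but the regions at these genes overlapped between the genotypes (826, 777, 703 and 907 bp at Rnu5g). Rnu1b1, also among the 6, had only 200, 172, 0 and 0 bp in its window. Over the 13690 genes of the promoter comparison, 3.69% had fewer and 23.8% more uncentred bases in this sense. The mean over the 9 was 1789, 1951, 1647 and 1337 bp. A peak lay at an snRNA gene in 61, 63, 60 and 56 of the 64 merged regions that hold such a gene, so most of these sites were marked in every library.

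At protein-coding genes, limma called 0 of 13690 genes longer (0% of genes) and 0 shorter (0%) in KO at an adjusted p of 0.05. At an unadjusted p under 0.05, 386 were longer and 175 shorter. By the measure set against the within-genotype difference, 545 genes (3.98%) were longer and 661 (4.83%) shorter. Without centring these were 754 and 108, so this split moved with the scaling, which shifts the median of all genes from -0.01 to 0.06. With WT_407 left out limma called 124 longer and 42 shorter, and with WT_409 left out 48 and 3. In the rank comparison limma called 0 of 12717 promoter regions (0%) and 0 of 7359 distal regions (0%), with a smallest adjusted p of 0.975, and 642 promoter and 273 distal regions had an unadjusted p under 0.05. By separation, 623 promoter regions were higher (4.9%) and 511 lower (4.02%), and 309 distal regions were higher (4.2%) and 373 lower (5.07%).

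The 10 genes of smallest p among those longer in KO, taken only from genes whose genotypes do not overlap, include Phlda3 of the p53 list below and 9 others. Pira2, an activating receptor of myeloid cells, had 676, 574, 2398 and 1932 bp (centred log2 change 1.39 ± 0.11 SE, limma adjusted p = 0.180). It belongs to a cluster of similar receptor genes on chromosome 7, so read placement there is uncertain. Epx, eosinophil peroxidase, had none in either WT library and 4342 and 2079 bp in KO (limma adjusted p = 0.193). Pdgfrb, a growth factor receptor of stromal cells, and Gm52351 share their window and had 464, 499, 1864 and 1844 bp. Rnf144a, a ubiquitin ligase gene, had 2463, 2581, 4447 and 3905 bp. Gcnt2, a glycosyltransferase gene with several starts, had 8879, 8673, 15086 and 13067 bp. Hsd11b1, which activates glucocorticoids, Pla2g7, which inactivates platelet-activating factor, and the chemokine gene Ccl6 lay between 919 and 1669 bp in WT and between 1958 and 3080 bp in KO. None passed the adjusted threshold. In a window of 2 kb the change at Rnf144a turned to -0.10 and that at Gcnt2 fell to 0.05, and with a fold of at least 10 that at Pla2g7 was 0.17.

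Of the 10 genes of smallest p among those shorter in KO, chosen in the same way, 2 have an snRNA gene within 5 kb of a start, as have 101 of the 13690 genes (0.738%). Of those 101, 12 were shorter (11.9%) and 3 longer (2.97%) beyond the within-genotype difference, with a median change of -0.02. Alyref2, an RNA export factor gene, had 2980 and 3376 bp in WT and 2099 and 2098 bp in KO (centred log2 change -0.61 ± 0.09 SE, limma adjusted p = 0.779), and the snRNA gene LOC115487699 lies in its window. Pxn, which encodes paxillin of focal adhesions, had 3343, 3398, 2514 and 1631 bp, with Gm24265 and Gm24407 in its window. The others were Wdr18, a ribosome biogenesis gene (2247, 2277, 1921 and 1647 bp), Exosc9, an RNA exosome subunit gene (2100, 2157, 1744 and 1624 bp), F13a1, a coagulation factor gene of macrophages and megakaryocytes (2968, 2153, 1458 and 1398 bp), and the transcription factor gene Tal2 (1972, 2398, 1750 and 1245 bp). Gsg1l, Pxt1, Gm21297 and Fhdc1 completed this group with changes from -1.05 to -0.31.

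**Figure D4:**
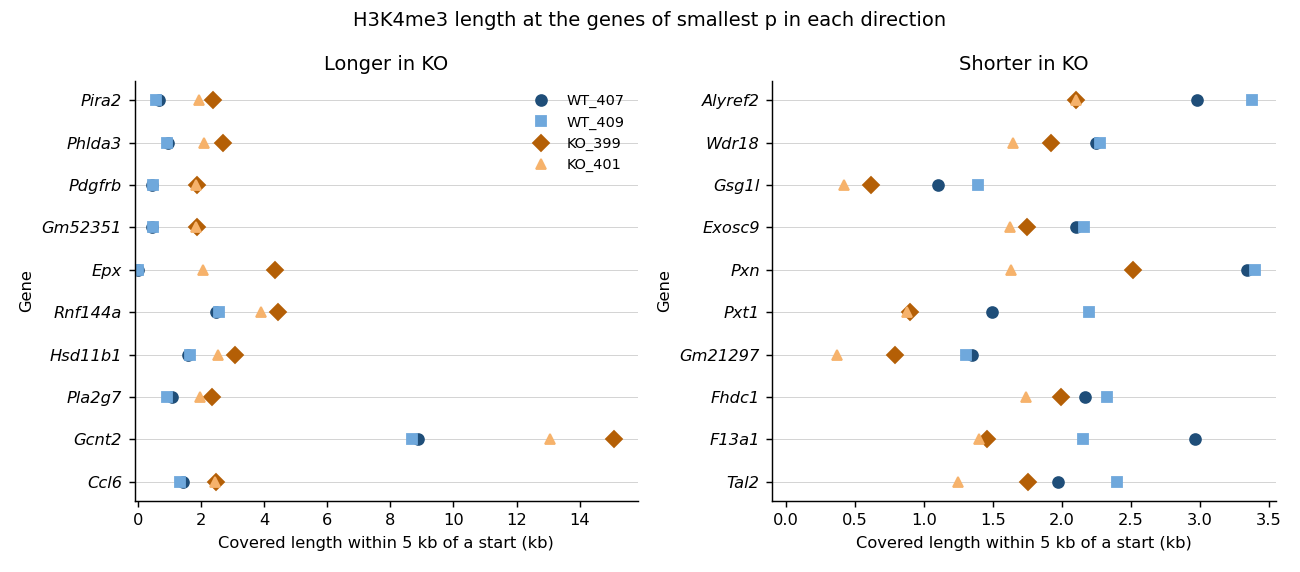
Covered length of H3K4me3 within 5 kb of a start (kb) at the 10 genes of smallest p in each direction among those whose genotypes do not overlap, with 1 symbol per library. At Epx both WT libraries are at 0, and at Alyref2 both KO libraries lie together (2099 and 2098 bp).

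Ranks gave the following regions of smallest p. The promoter region with the smallest p among those of lower rank was that of Rdm1, a DNA repair gene, on chromosome 11 from 101626594 to 101629036. The snRNA gene LOC115487916 lies inside it, one of the sites that led to the choice of this kind of gene. Its percentile among the shared regions was 69.9, 68.8, 39.9 and 39.7, with 150, 163, 83 and 62 reads at the summit. Its length was 2262, 2443, 2020 and 2057 bp, a centred log2 change of -0.28. The others of the 4 lower promoter regions, at Ugdh (93.5, 93.8, 45.3 and 57.9 percentile), Sbno1 and Fndc3b, held no snRNA gene. Summit reads were 203, 230, 266 and 218 at Ugdh, 237, 258, 266 and 246 at Sbno1, and 207, 217, 250 and 225 at Fndc3b. Their lower ranks thus came without a matching fall in summit reads. Of the 4 distal regions of smallest p that were lower, 2 held an snRNA gene, namely the Gm22068 region described above (46.1, 51.2, 14.5 and 7.33 percentile) and the region of Gm26444 on chromosome 12 (45.9, 49.2, 25.1 and 27.8 percentile). The others, nearest to Map3k20 and Atp23, held none. Among the higher ones, the promoter region of Arpc2, an actin-nucleating subunit gene, stood at 58.0, 63.7, 99.98 and 99.9 percentile, and the distal region inside Sirt4 on chromosome 5 from 115479623 to 115480845 stood at 8.15, 6.09, 47.8 and 41.1 percentile. The Sirt4 region covered 587, 825, 1223 and 1022 bp, and its summit held 23, 29, 115 and 57 reads. The distal region of smallest p among the higher ones lies on chromosome 12 from 20919709 to 20921818, at 34.0, 37.8, 65.2 and 68.1 percentile with 1598, 597, 2068 and 1746 bp. At Arpc2 the lengths lay close together (5523, 5360, 5654 and 5542 bp), and so did the summit reads (241, 256, 273 and 252). The fold there, a ratio of summit reads to background, was 35.6, 50.2, 75.1 and 86.3. Its higher rank thus came without a matching rise in summit reads. The other higher regions were promoter regions at Morn2 and nearest to Ccr1 and Xbp1, and distal regions inside Tacc1 and Arap1.

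Of the gene lists, that of p53 targets had the highest number of genes longer in KO, while the T and NK lymphoid list, with 2 of 6, had a higher share. p53 is the transcription factor that answers to DNA damage and other stress, and its targets halt the cell cycle or lead to cell death. Of 31 listed genes tested, 8 (25.8%) were longer beyond the within-genotype difference and 0 were shorter, against 3.98% and 4.83% of all genes. The list was chosen with earlier results of these data known, so these shares are a description and carry no test. The median change was 0.14 on the centred log2 scale, against -0.01 over all genes. Of the 31, 24 were above 0, against 45.7% of all genes. Phlda3, which restrains Akt signalling, had 946, 923, 2695 and 2095 bp (centred log2 change 1.08 ± 0.09 SE, limma adjusted p = 0.180). Mdm2, the ubiquitin ligase that degrades p53, had 2953 and 3162 bp in WT and 5512 and 4403 bp in KO. Bax, a pore-forming cell death protein, had 1596, 1628, 2643 and 2182 bp, and Ccng1, cyclin G, had 1661, 1621, 2892 and 2096 bp. Aen, a nuclease gene of apoptosis, had 2112, 2064, 2742 and 2600 bp. Psrc1, Gtse1 and Tnfrsf10b completed the 8. Cdkn1a, the cell-cycle inhibitor p21, was named after its values were seen. It had 2575 and 2611 bp in WT and 6605 and 3228 bp in KO. Both of its KO values were above both WT values, but the KO mice differed by more than the genotypes did. None of the 31 passed limma's adjusted threshold, and at Mdm2 the change was -0.0098 in a window of 2 kb. With each library left out in turn the median of the list lay between 0.0923 and 0.150, and the median over all genes between -0.0167 and -1.19e-05.

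p53 binds pairs of a 10-base element, the half-site. A match to the consensus half-site, which reads alike on both strands, was found in the window of 250 bases before to 50 bases after a start for 9 of 24 listed genes with a RefSeq window (37.5%) and for 5 of the 7 longer ones with a window, against 9.55% of 27025 genes. The 250 bases before the start are shown for 4 genes that carried longer H3K4me3 in both KO libraries, with half-sites in capitals (RefSeq, GRCm38.p6). Cdkn1a is on the plus strand at chr17:29090729-29090978, and Mdm2 at chr10:117710759-117711008, Bax at chr7:45466899-45467148 and Ccng1 at chr11:40755287-40755536 are on the minus strand.
Cdkn1a: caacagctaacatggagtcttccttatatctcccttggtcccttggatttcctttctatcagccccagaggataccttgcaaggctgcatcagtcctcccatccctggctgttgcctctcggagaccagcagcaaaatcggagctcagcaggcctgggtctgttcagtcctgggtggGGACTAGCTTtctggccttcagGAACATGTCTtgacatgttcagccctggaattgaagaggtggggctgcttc
Mdm2: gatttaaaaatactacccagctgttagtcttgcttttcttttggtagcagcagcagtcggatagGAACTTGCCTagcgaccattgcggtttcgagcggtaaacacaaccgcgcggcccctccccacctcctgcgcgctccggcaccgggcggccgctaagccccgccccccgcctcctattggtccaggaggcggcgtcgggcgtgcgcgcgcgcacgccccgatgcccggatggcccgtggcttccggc
Bax: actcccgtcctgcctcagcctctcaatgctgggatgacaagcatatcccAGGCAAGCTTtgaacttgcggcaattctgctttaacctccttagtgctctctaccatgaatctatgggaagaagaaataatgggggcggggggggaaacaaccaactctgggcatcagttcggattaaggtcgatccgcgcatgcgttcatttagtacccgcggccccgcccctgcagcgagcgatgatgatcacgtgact
Ccng1: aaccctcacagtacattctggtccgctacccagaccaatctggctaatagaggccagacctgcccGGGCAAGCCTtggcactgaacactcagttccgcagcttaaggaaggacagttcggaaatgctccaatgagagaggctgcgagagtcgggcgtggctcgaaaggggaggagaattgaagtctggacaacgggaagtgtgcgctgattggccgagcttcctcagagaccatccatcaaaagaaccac
The first capitals begin 73 bases before the start in Cdkn1a, whose other match begins 51 bases before it, 186 in Mdm2, 201 in Bax and 185 in Ccng1. The window of Phlda3 held no match. A match is a sequence of these letters and no evidence of binding. The list was made up of p53 targets, so its share of matches is likewise a description without a test.

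**Figure D5:**
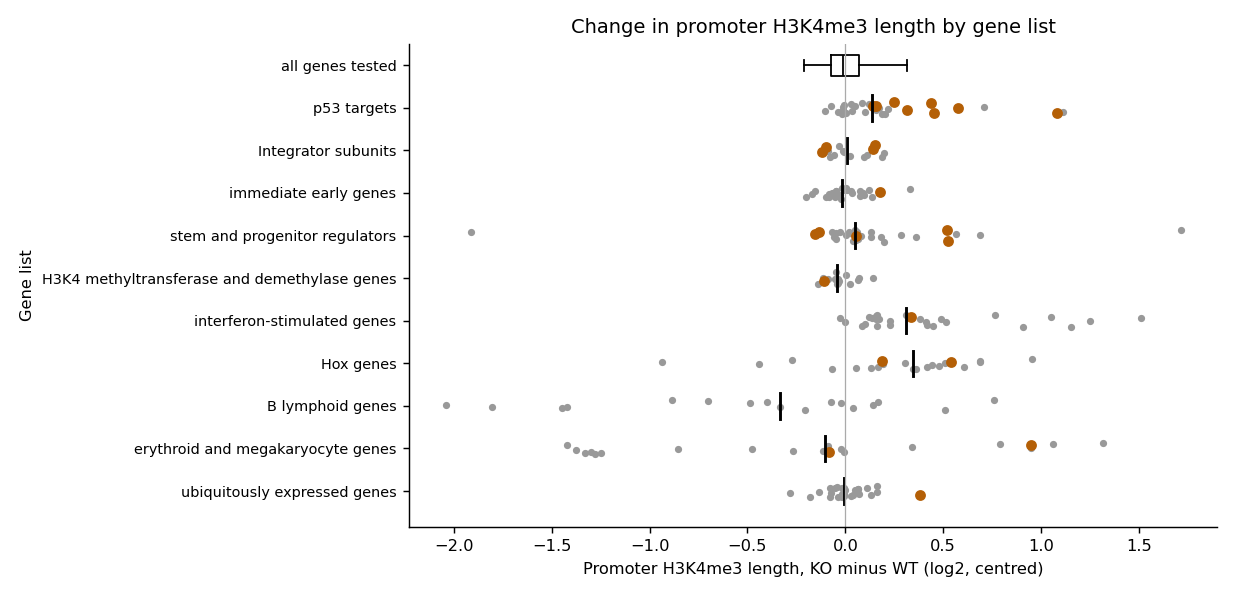
Change in promoter H3K4me3 length from WT to KO (log2, centred) for the tested members of 10 gene lists, with the box (quartiles, whiskers at the 5th and 95th percentiles) for all 13690 genes. Large orange points are genes separated beyond the within-genotype difference, small grey points are other genes, and black lines are medians. In the p53 list 8 points are orange, all above 0.

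The other lists gave few separated genes. Of 16 Integrator subunits, Ints11 and Nabp1 were longer. Ints10 (1884, 1959, 1935 and 1770 bp) and Ints7 (4868, 5070, 5159 and 4593 bp) were shorter in centred values only, with changes of -0.05 and -0.03 without centring. At Ints11 itself, on chromosome 4 from 155869547 to 155889103, the window held 2338, 2356, 2931 and 2602 bp, and the promoter peak stood at percentile 75.1, 70.5, 92.7 and 91.2 of its list. The labels do not say whether the deletion reaches the promoter, so this peak checks no label. In the neighbouring taste receptor gene Tas1r3, peaks of 404 and 769 bp in KO_399 and of 249 and 527 bp in KO_401 had no counterpart in either WT list. Of 33 stem and progenitor regulators 3 were longer and 2 shorter. Gata2, a transcription factor of stem cells and of the mast cell and eosinophil lineages, had 6872, 6373, 10617 and 9575 bp, and Cd34, a progenitor surface protein, had 1694, 1991, 3402 and 2480 bp. Of 16 H3K4 methyltransferase and demethylase genes 1 was shorter, Cxxc1 (2008, 2069, 2079 and 1878 bp, where only the centred values separate), and 0 were longer. Of 27 immediate early genes 1 was longer, Jun, and of 27 ubiquitously expressed genes 1, Polr2a (2965, 2957, 4628 and 3699 bp), the largest subunit of RNA polymerase II. Of 21 Hox genes 2 were longer, Hoxa3 and Hoxb8, with a list median of 0.34 that fell to 0.15 without WT_409. Of 22 granulocyte and monocyte genes 0 were separated in either direction. Of 14 stromal and endothelial genes 1 was longer, Pdgfrb, and 0 shorter, with a list median of 0.10 that turned to -0.36 without KO_399.

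Some lists moved with 1 library. The interferon-stimulated genes had a median change of 0.31 with 25 of 27 above 0, but WT_409 was low at them, where the means were 3882, 2457, 4644 and 3790 bp. Without WT_409 the median was -0.0022 and 13 of 27 were above 0, and 1 gene of the list, Eif2ak2, was separated. The B lymphoid genes had means of 500, 2357, 1324 and 625 bp, with peaks at 11, 17, 16 and 11 of 19 genes, and 0 were separated. The erythroid and megakaryocyte genes had means of 946, 1701, 1388 and 1114 bp, with peaks at 11, 22, 14 and 13 of 24. At Pax5, which commits cells to the B lineage, H3K4me3 covered 0, 3869, 362 and 0 bp. Of the T and NK lymphoid genes 14 of 20 had no peak in any library, and 2 of the 6 tested, Gata3 and Lck, were longer. Whether cells of other lineages played a part in these values was not tested.

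Epx was followed up with other eosinophil genes, named after their values were seen, and these did not all go the same way. Prg2, the granule major basic protein, had 0, 615, 4016 and 2644 bp. Prg3, its neighbour, had none in either WT library and 4734 and 742 bp in KO. In KO_401 the peak of 566 bp at Prg3 had a fold of 5.02, the lowest of that list. The peak of 626 bp at Epx in KO_401 had a fold of 5.32. With a fold of at least 10 the centred log2 change at Epx fell from 3.64 to 1.73. Il4, a cytokine of eosinophils, basophils and T cells, had 339, 450, 2627 and 1346 bp. The genotypes did not overlap at Prg2, Prg3 and Il4. Siglecf, an eosinophil lectin (1015, 2219, 2620 and 2070 bp), and Ear2, an eosinophil ribonuclease (472, 2161, 1465 and 1434 bp), overlapped between the genotypes. The eosinophil receptor Il5ra had 496 bp in KO_399 alone, Ccr3 had none in any library, and so did the mast cell and basophil genes Ms4a2, Fcer1a, Mcpt8 and Cpa3. Whether the number of eosinophil-lineage cells differed between the samples was not tested.

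Sites listed in 1 genotype only were few and weak. Of 14854 merged promoter regions, 50 (0.337%) were in both WT and neither KO library and 126 (0.848%) in both KO and neither WT library. Of 15680 distal regions these were 258 (1.65%) and 497 (3.17%). Over both classes this makes 308 in WT and 623 in KO, and with equal peak numbers 377 and 510. Within the WT pair 5875 regions were in 1 library and not the other, and within the KO pair 5617. Of all merged regions, 4731 were in 1 library alone, 2152 of them in KO_399. The median width of the KO-only distal regions was 549 bp in KO_399 and 333 bp in KO_401, at percentiles 15.2 and 9.74 of the lists, against 977 and 798 bp and percentiles 44.4 and 38.8 for distal regions held by all 4. The strongest KO-only promoter regions lay at Atp8b5, a phospholipid transporter gene, near Pik3cg, the gene of a leukocyte lipid kinase, near the receptor-like gene Gm15448, and at Mgam, a starch-digesting enzyme gene (1251 and 702 bp). The strongest KO-only distal regions lay inside Arhgef28, nearest to Oard1 and, on chromosome 12, nearest to Rrm2 and at 25239311 to 25240837. The strongest WT-only distal regions lay inside Slc15a2 and on chromosome 12, beginning at 19044505, 22029651 and 23188392. The strongest WT-only promoter regions were those of Pxt1, Napg and the predicted genes Gm10479 and Gm38538, the last 2 on chromosome 12.

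That stretch of chromosome 12, from 19 to 24 Mb, held 17 of the 308 WT-only regions (5.52%) and 0.197% of all merged regions. Its peaks covered 40.8, 42.2, 31.0 and 21.9 kb, and the libraries held 41, 51, 31 and 17 of its 60 regions. Both KO values were under both WT values. The region at 20919709 to 20921818, of higher rank in KO, lies in the same stretch. In bins of 5 Mb over the genome, the bin from 20 to 25 Mb, which overlaps this stretch, held 15 WT-only regions, the next highest bin held 5 and the median bin 0. The stretch is made of predicted genes in families of similar copies, where reads cannot be placed with certainty. It was chosen after its values had been seen, so they are a description and carry no test.

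H3K27me3, the Polycomb mark measured in the same cells, lay within 2 kb of a start of 3022 of the 13690 genes in each WT mouse. These genes had shorter H3K4me3 than the others, with medians of 1331.5, 1259, 1557.5 and 1184.5 bp, against 2327, 2369, 2655 and 2347 bp. Their median change from WT to KO was -0.03, against -0.01 at the others. Of the genes with H3K27me3, 2.58% were longer and 5.29% shorter beyond the within-genotype difference, and of those without it 4.38% and 4.70%.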

How the data were processed

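H3K4me3 and H3K27me3 ChIP-seq peaks were taken from 8 narrowPeak lists, 1 per library, so replicates were not pooled. The build mm10 and the tools Bowtie2, MACS2, SAMtools, deepTools, FastQC and Trim Galore are named, without versions, in the submitters' processing notes. Per the labels, chromatin was fixed in 1% formaldehyde, sheared to 100 to 300 bp and read over 75 bp. The deposited fold is a ratio of summit pileup to background, its p-value and q-value were deposited as −log10, and a score in whole numbers was deposited beside them; all are the authors'. Each deposited summit offset gives the position in the peak. Every fold exceeded 5, so a site without a listed peak may hold a weaker one.

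Summit reads were solved from fold and −log10 p (within 0.001 for 100% of summits), and library totals are unknown. Gene spans and starts came from RefSeq tables of GRCm38.p6, which has mm10 coordinates: 58.9% to 61.1% of 17492 genes with a start had a peak within 1 kb of it, against 7.47% to 8.43% with coordinates moved by 100 kb. Of 21887 protein-coding genes, 4395 without a start used the longer of the windows at the ends of the span. Covered bases within 5 kb were compared on log2(length + 250 bp), median-centred, and ranks as normal scores, with limma 3.58.1 in R 4.3.3 (trend, robust, Benjamini-Hochberg) after tests on simulated data. Separation means a gap between genotypes above the larger within-genotype difference. Single values were compared by exact permutation of the 6 labelings, with Python 3.11.15. Named were the 10 genes of smallest p per direction with no overlap, 4 regions per direction and class, 4 per genotype and class for regions of 1 genotype, up to 6 separated members per list, and Ints11; genes named otherwise are marked. The members and lists were chosen with earlier results of these data known. Each number in the labels is read as a mouse. Alternatives were other pseudocounts, windows, scalings, fold minimums, equal peak numbers and left-out libraries.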

Additional observations from a re-analysis of the deposited data

How the results depend on the processing

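No paired analysis was possible because the WT and KO mice share no replicate number. Library totals are unknown, peaks under a fold of 5 are not listed, and with 2 mice a group few differences can be called. KO_399 set the sign of the whole-list differences (KO minus WT). Leaving out each library in turn gave -1.11 to 6.68 Mb for covered length (2.79 with all), -0.437 to 4.36 Mb at promoters, -0.669 to 2.32 Mb at distal sites, -622 to 1964 peaks (671 with all), -103 to 481 at promoters and -519 to 1483 at distal sites, where it was -143 without WT_407. Median width gave -10.5 to 66.5 bp (28 with all), -11.5 to 199.5 at promoters and -34 to 66 at distal sites. The lowest value was that without KO_399 in each of these. Overlap within minus between genotypes ranged from -0.0225 to 0.0126 (-0.00647 with all).

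Limma's calls of longer promoter regions were 0 to 124 and of shorter ones 0 to 42 over the left-out libraries. They were 5 longer with a window of 2 kb (Phlda3, Pdgfrb, Gm52351, Tbc1d24 and Pla2g7), 3 with quantile normalization (Pira2, Epx and Phlda3) and 3 without trend and robust fitting (Myct1, Obsl1 and Inha). Ranked on the q-value, 1 promoter region was called, that of Rdm1 (limma adjusted p = 0.0384). Without centring 754 genes were separated longer and 108 shorter. With a fold of at least 10, 96 regions were in WT alone and 249 in KO alone, and with equal peak numbers 377 and 510 (308 and 623 as listed). With a library left out these counts were 513 to 1700 and 1070 to 2775, since fewer libraries then had to hold or lack a region. Of the snRNA regions, 10 were shorter without centring, with a median of -0.15, and the median was -0.28 to -0.16 over the left-out libraries (settings chosen after seeing the data). Changes that turned sign were Rnf144a (-0.10), Mdm2 (-0.0098), Jun (-0.013), Ikzf1 (-0.034) and Hoxa3 (-0.044) with a window of 2 kb, Gsg1l (0.74), Ikzf1 (-0.040), Lck (-0.11) and Itga2b (-0.12) with a fold of at least 10, and Hoxb8 (-0.34) with equal peak numbers. Where no cause is given, it was not tested.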

Other observations

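The 5 Mb bins with most KO-only regions were on chromosome 8 from 120 to 125 Mb with 11, on chromosome 5 from 110 to 115 Mb with 10, and on chromosome 4 from 130 to 135 Mb and chromosome 7 from 0 to 5 Mb with 8 each, against a median of 1 over 549 bins. In that order they held 218, 125, 208 and 81 merged regions of any kind, and 2.04% of all merged regions were KO only. In the bin on chromosome 7, which holds the paired receptor genes with Pira2, H3K4me3 covered 0.0944, 0.0949, 0.121 and 0.102 Mb in WT_407, WT_409, KO_399 and KO_401. That bin held 0 WT-only regions, and 345 of the 549 bins held none. Myct1, a gene of endothelial and stem cells named after its values were seen, was bare in the WT mice and had 1681 and 1461 bp in the KO mice.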
